A study of Homo sapiens with 72 samples.

Results

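The 31 genes described here make, move, store and export cholesterol or control these steps and its uptake. They were chosen by symbol from the 23170 genes counted. They comprise 18 enzymes of synthesis, of which 7 lead from acetyl-CoA to farnesyl pyrophosphate and 11 carry squalene on to cholesterol, 4 genes that control the transcription factor SREBP2, 5 genes of the liver X receptors (LXR) and export, and 4 genes of transport and storage. The cells were primary wildtype normal human dermal fibroblasts, the matrix-making cells of skin, kept for 24 hours in a 384-well plate with omaveloxolone or with DMSO as solvent control. This compound, a triterpenoid, activates the transcription factor NRF2 by binding its repressor KEAP1. The method, DRUG-seq, reads the 3' ends of polyadenylated RNA from barcoded lysates. DMSO was given to 32 wells. Each of the 10 doses was given to 4 wells: 0.0005, 0.002, 0.005, 0.014, 0.04, 0.12, 0.37, 1.11, 3.33 and 10 µM. All groups shared genotype, medium and time, and differed in the compound and its dose. The plate held all doses in rows K and L and the DMSO controls in columns 2 and 23. The protocol names 16 DMSO wells per plate, whereas 32 wells carried that label. The wells came from a single commercial cell stock, so p-values measure the spread between wells, which may be technical.

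Cells hold cholesterol within narrow limits by a pair of opposed programs. When sterol in the endoplasmic reticulum is low, SCAP escorts SREBP2 to the Golgi, where proteases release its active part, which switches on the genes of synthesis and uptake. When sterol is high, the INSIG proteins keep SCAP in the endoplasmic reticulum, and oxysterols activate LXR, which switches on the exporters ABCA1 and ABCG1 and the ubiquitin ligase MYLIP.

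Promoters were searched because the members fall under these 2 factors. RefSeq promoter windows, from 250 bases before to 50 bases after a gene's start on GRCh38.p14, were matched for 27 of the 31 members, and ACAT2, FDFT1, SQLE and ABCG1 had none. Both strands were searched for the sterol regulatory element TCACNCCAC, the NF-Y box CCAAT, the NRF2 element TGACNNNGC and the LXR element, a direct repeat of AGGTCA with a spacer of 4 bases. The sterol element without mismatch was present in SREBF2 alone, at 133 to 125 bases before its start, against 1.39% of all genes with a window. With up to 1 mismatch it was present in 12 of 27 members and in 28.2% of all genes. The NF-Y box was present in 20 of 27 members, among them 13 of the 15 synthesis enzymes with a window, and in 39.7% of all genes. The NRF2 element was present in HMGCS1, EBP, INSIG2, NPC2 and SOAT1, which is 5 of 27, and in 16.1% of all genes. The LXR element was found in no member without mismatch, and with up to 2 mismatches in ABCA1 alone, against 2.90% of all genes. These matches are letters in a window, and no binding was measured. The stretches below show the sterol element and NF-Y box (capitals) upstream of the gene for SREBP2, of its target INSIG1 and of a mevalonate and a sterol enzyme. The sterol element has up to 1 mismatch outside SREBF2, and a match on the opposite strand is shown as its complement reads on the gene's strand. Each is the part of the window before the start that lies outside exons of protein-coding genes in GENCODE release 29.
SREBF2, chr22:41832855-41833078 (plus strand): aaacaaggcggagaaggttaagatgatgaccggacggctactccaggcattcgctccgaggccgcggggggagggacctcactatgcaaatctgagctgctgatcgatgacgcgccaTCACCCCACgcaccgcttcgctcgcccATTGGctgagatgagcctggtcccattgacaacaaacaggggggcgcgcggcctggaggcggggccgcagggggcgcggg
INSIG1, chr7:155297628-155297775 (plus strand): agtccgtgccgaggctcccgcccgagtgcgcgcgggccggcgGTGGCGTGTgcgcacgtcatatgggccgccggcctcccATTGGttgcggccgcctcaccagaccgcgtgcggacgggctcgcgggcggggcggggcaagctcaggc
FDPS, chr1:155308616-155308747 (plus strand): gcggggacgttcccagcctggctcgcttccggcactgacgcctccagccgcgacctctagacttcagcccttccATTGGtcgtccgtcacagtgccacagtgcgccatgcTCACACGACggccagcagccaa
MSMO1, chr4:165327419-165327622 (plus strand): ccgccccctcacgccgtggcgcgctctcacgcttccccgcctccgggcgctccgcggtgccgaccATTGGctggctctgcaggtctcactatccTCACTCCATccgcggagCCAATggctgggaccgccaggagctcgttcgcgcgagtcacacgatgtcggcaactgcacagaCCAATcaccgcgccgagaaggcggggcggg
For the export and storage genes, 30 bases hold the near match to the LXR element in ABCA1 and the NRF2 element in SOAT1, in capitals.
ABCA1, chr9:104928202-104928231 (minus strand): caggcttTGACCGATAGTAACCTctgcgct
SOAT1, chr1:179293737-179293766 (plus strand): gccctgcgcgTGACGCAGCggtgctcggag

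The wells at 0.37 µM held the most counts and those above it the fewest. Total counts of the wells up to 0.12 µM lay between 4160469 and 8726351, and of DMSO wells between 4897308 and 8663568. Totals lay between 9289696 and 10361975 at 0.37 µM, 1428685 and 1704791 at 1.11 µM, 131894 and 208214 at 3.33 µM, and 25525 and 39263 at 10 µM. In a well, fewer cells and less RNA per cell cannot be told apart. NQO1, an NRF2 target that checks the compound, rose from 420 CPM in DMSO at 0.37 µM to 5589 CPM, and its mean at 1.11 µM was 411 CPM. CPM are counts scaled to a common library size, here after TMM normalization. All 10 fibroblast markers were counted, and their sum was 67855 to 82118 CPM in DMSO, 33903 to 38081 at 0.37 µM and 67182 to 79568 at 1.11 µM. Among 5 leukocyte markers, the sum was 93.8 to 184 CPM in DMSO, 90.5 to 98.4 at 0.37 µM and 205 to 418 at 1.11 µM. Nearly all of that sum was CD68, a lysosomal protein, whereas PTPRC had 2 counts in all DMSO wells, 78 counts at 0.37 µM and 0 at 1.11 µM. Mitochondrially encoded mRNAs made up 0.958% of counts in DMSO, 0.0429% at 0.37 µM and 0.0212% at 1.11 µM. Their part in the results below was not tested.

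The summed level of the 18 synthesis enzymes was low at 0.37 µM and, mostly through MSMO1, high at 1.11 µM. It was 1429 ± 93.5 CPM in DMSO (SD, n = 32). From 0.0005 to 0.12 µM it was 90.5% to 100% of that. At 0.37 µM it was 419 ± 53.7 CPM (SD, n = 4), or 29.3% of DMSO. At 1.11 µM it was 2062 ± 150 CPM, or 144% of DMSO. The 4 wells at 0.37 µM lay between 373 and 484 CPM, those at 1.11 µM between 1869 and 2235 CPM, against 1283 to 1668 CPM over the DMSO wells. Neither dose overlapped with DMSO. MSMO1 alone went from 213 CPM in DMSO to 599 CPM at 1.11 µM, and without it the other 17 enzymes summed to 1216 ± 84.7 CPM in DMSO and 1463 ± 55.0 CPM, or 120%, at 1.11 µM. Of these 4 wells 2 then lay above all DMSO wells. At 0.37 µM the sum without MSMO1 was 30.9% of DMSO, with all 4 wells below DMSO. At 3.33 µM the sum was 1212 ± 430 CPM and at 10 µM 433 ± 411 CPM, with wells as far apart as 176 and 1043 CPM at the highest dose.

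**Figure D1:**
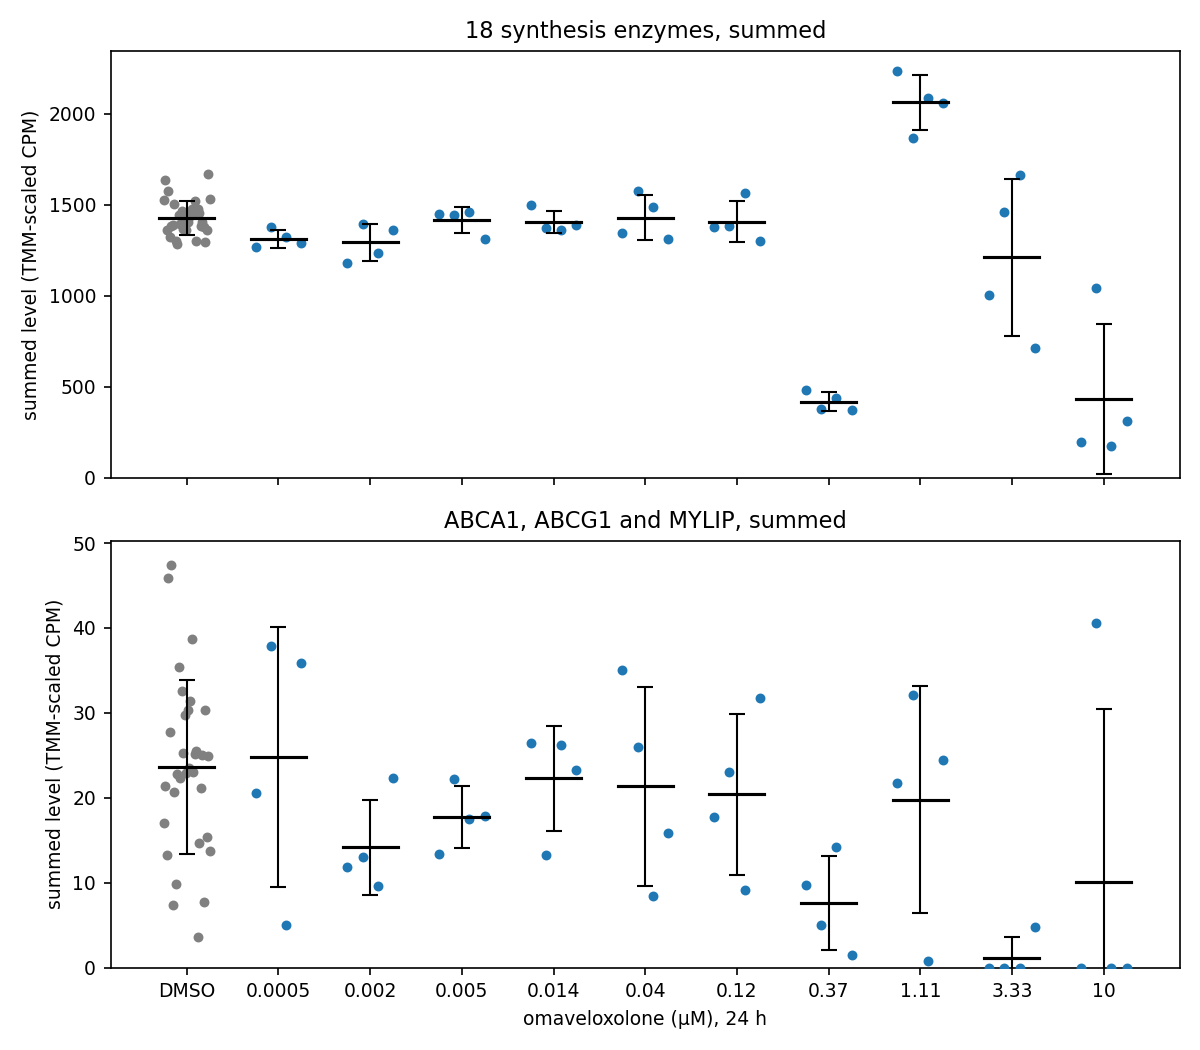
Summed level in TMM-scaled CPM of the 18 synthesis enzymes (upper panel) and of ABCA1, ABCG1 and MYLIP (lower panel) by dose. Points are wells (32 DMSO, 4 per dose), horizontal bars the mean and whiskers the SD; the synthesis sum lies below every DMSO well at 0.37 µM and above every DMSO well at 1.11 µM.

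No member passed the test at any dose from 0.0005 to 0.12 µM. Each dose was compared with DMSO by the quasi-likelihood test of edgeR over 14243 genes, and a gene is called higher or lower at an adjusted p under 0.05. Of the 31 members 30 passed the filter on low counts, ABCG1 being the exception. The share of all genes called, in either direction, was 0.00702%, 0.0562%, 0.0772%, 0.218%, 0.793% and 2.33% from the lowest of these 6 doses to the highest. At an unadjusted p under 0.05 the members numbered 1, 3, 0, 1, 0 and 0. INSIG2 was among them at 0.0005, 0.002 and 0.014 µM, with SQLE and SOAT1 at 0.002 µM. Of the 14243 genes, 656, 769, 597, 804, 1112 and 1793 passed that cutoff. DESeq2 called 0 members at each dose, and 12, 6, 28, 68, 260 and 706 of all genes. Between 0.04 and 0.12 µM there were 0 calls among the members, against 0.014% of all genes, and 0 member calls by DESeq2. At an unadjusted p under 0.05 there were 0 members and 644 of all genes. A slope on log10 dose over these 6 doses called 0 of 30 members and 3.89% of all genes. At an unadjusted p under 0.05 that slope was found in 1 member and in 1780 of 12775 genes. The member was SQLE, at 0.29 ± 0.09 log2 units per 10-fold dose (SE, adjusted p = 0.0664). Its means were 42.8, 37.8, 44.7, 57, 60.6 and 61.2 CPM from the lowest dose up, all below the DMSO mean of 68.5 CPM. At 0.0005, 0.002 and 0.005 µM all 4 wells lay below the DMSO median, so the slope was no rise above DMSO. NQO1 had a slope of 1.26 ± 0.04 over the same wells.

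At 0.37 µM, 18 of the 30 members tested were lower than in DMSO and 0 were higher. Of all genes tested 13.6% were lower and 11.2% higher. The median log2 change was -1.32 over the members and -0.14 over all genes. Synthesis made up most of it, with 14 of 18 enzymes lower and a median of -1.72. Of the SREBP2 control genes 3 of 4 were lower, of the LXR and export genes 1 of 4 tested, and of transport and storage 0 of 4. In 11 members all 4 wells lay below all 32 DMSO wells, which held for 5.17% of all genes tested. With size factors of DESeq2 in place of TMM, the median over all genes moved to 0.11, that of the members to -1.07, and the higher share of all calls from 45.1% to 63.4%; 17 members were then lower and NR1H2 was higher.

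**Figure D2:**
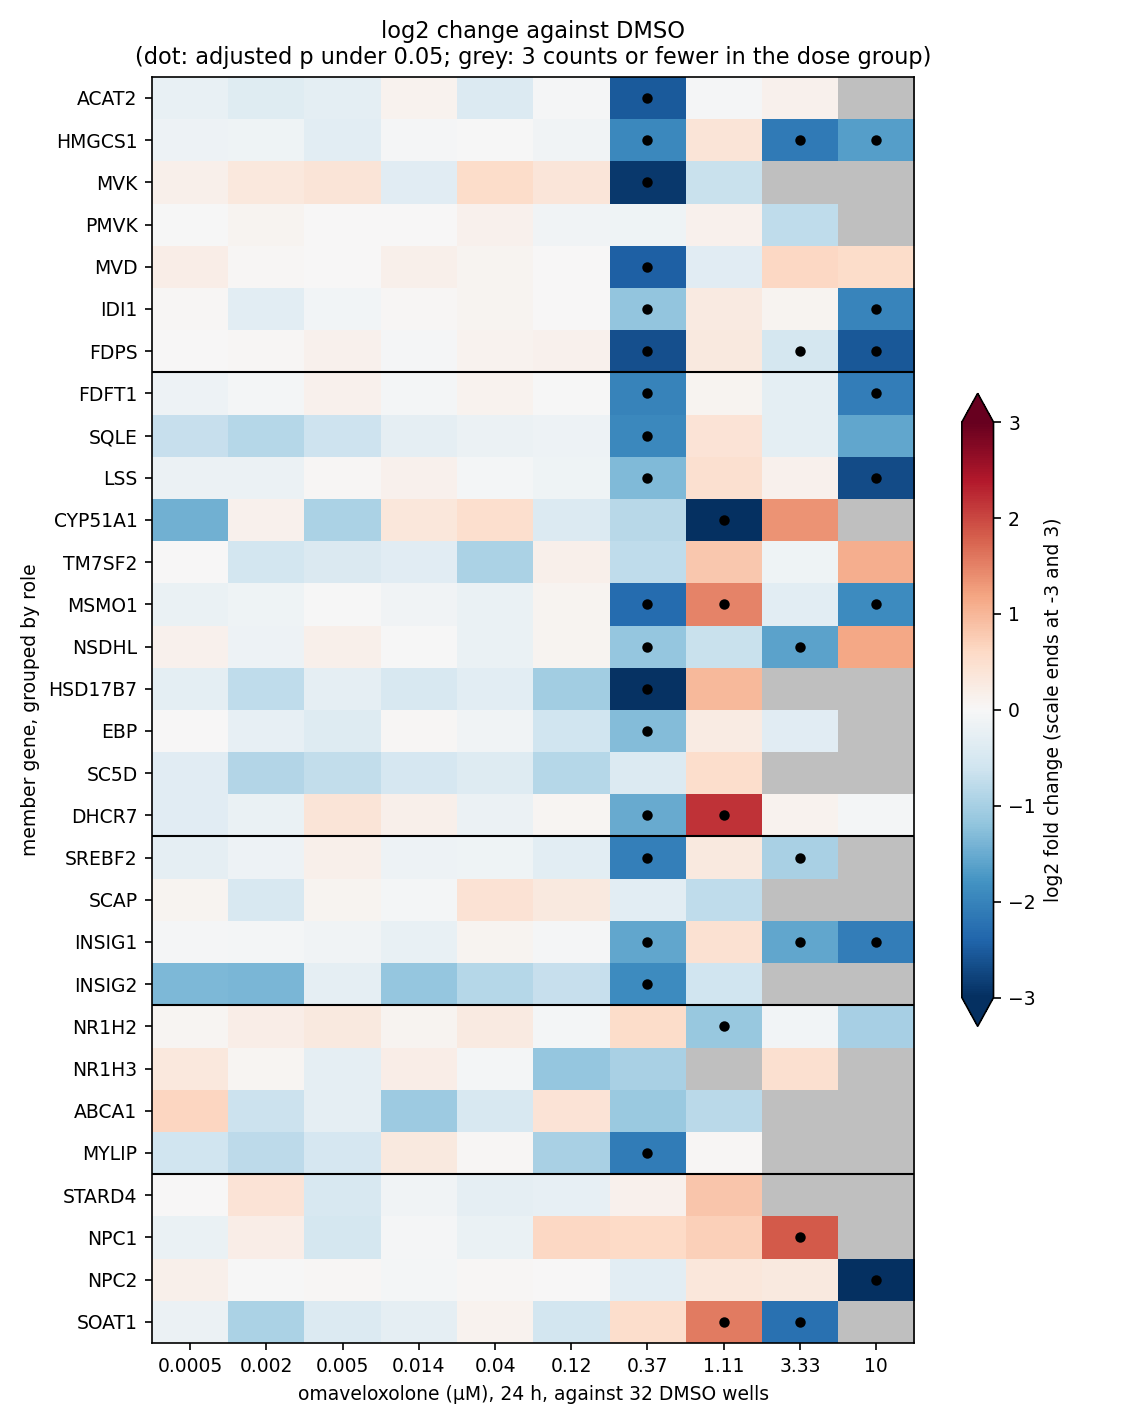
Fitted log2 change against DMSO for the 30 members tested (rows, grouped from top to bottom as mevalonate arm, squalene and sterol arm, SREBP2 control, LXR and export, transport and storage) at each dose (columns, µM). Dots mark an adjusted p under 0.05, grey cells have 3 counts or fewer over the dose group and carry no dot; the column at 0.37 µM holds 18 dots, all of them lower.

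The mevalonate arm fell at 0.37 µM in 6 of its 7 enzymes, with a median log2 change of -2.46. ACAT2, which joins acetyl-CoA units at the head of the path, had 10.3, 2.22, 4.70 and 3.49 CPM in the 4 wells, against 8.61, 30.0 and 47.7 CPM as the lowest, median and highest DMSO well. Its log2 change was -2.51 ± 0.49 (SE, adjusted p = 3.38e-05), and 3 of 4 wells lay below all DMSO wells. HMGCS1, which makes HMG-CoA, had 34.2, 8.09, 17.0 and 19.1 CPM, against 34.2, 71.6 and 104 CPM in DMSO. The highest of these wells lay just under the lowest DMSO well, and the log2 change was -1.93 ± 0.31 (adjusted p = 7.81e-07). MVK, mevalonate kinase, was at 0.803, 3.32, 1.84 and 2.77 CPM, all below the lowest DMSO well at 7.81 CPM. Its log2 change of -2.89 ± 0.41 was the largest fall in this arm. PMVK, the kinase that follows it, did not pass (log2 change -0.13 ± 0.31), with wells from 8.76 to 27.6 CPM, 1 of them below the DMSO range of 11.3 to 37.9 CPM.

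MVD, the decarboxylase that forms isopentenyl pyrophosphate, was at 15.1, 8.76, 8.99 and 6.98 CPM at 0.37 µM, under a DMSO range of 42.5 to 80.4 CPM (log2 change -2.46 ± 0.30). IDI1, which isomerizes that unit, was at 49.5 to 73.7 CPM against 99.7 to 172 CPM in DMSO (log2 change -1.18 ± 0.26). FDPS makes farnesyl pyrophosphate, the last step shared with prenylation and the other isoprenoid branches. Its wells held 27.3, 18.2, 26.1 and 31.4 CPM, against 126, 153 and 221 CPM as the lowest, median and highest DMSO well. The groups lay far apart, with a log2 change of -2.64 ± 0.18 (6.25-fold lower, adjusted p = 2.16e-21), the smallest p among the members.

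In the squalene and sterol arm 8 of 11 enzymes were lower at 0.37 µM, with a median log2 change of -1.33. FDFT1, squalene synthase, commits farnesyl pyrophosphate to sterols. It had 102, 108, 79.8 and 67.6 CPM, against 261, 364 and 482 CPM as the lowest, median and highest DMSO well. No well overlapped with DMSO (log2 change -2.0 ± 0.21, adjusted p = 1.51e-12). SQLE, the epoxidase that follows, was at 9.86 to 28.9 CPM against 24.7 to 125 CPM in DMSO, and 3 of its 4 wells lay below that range (log2 change -1.93 ± 0.39). LSS, which closes the ring to lanosterol, had 76.5, 62.9, 75.0 and 66.7 CPM under a DMSO range of 126 to 238 CPM (log2 change -1.33 ± 0.22).

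MSMO1 and NSDHL take part in removing the C4 methyl groups. MSMO1 had 55.3, 21.7, 57.0 and 39.4 CPM, against 127, 206 and 305 CPM as the lowest, median and highest DMSO well. All 4 wells lay below DMSO (log2 change -2.30 ± 0.29, adjusted p = 1.01e-09). NSDHL was at 10.1 to 17.7 CPM, and 2 of its wells lay below the lowest DMSO well at 13.7 CPM (log2 change -1.17 ± 0.41, adjusted p = 0.0275). HSD17B7, the ketoreductase of the same step, had only 42 counts over the 4 wells. They stood at 2.52, 0, 1.74 and 0.308 CPM against a DMSO median of 7.28 CPM (log2 change -2.96 ± 0.77). EBP, the sterol isomerase, was lower by a log2 change of -1.30 ± 0.32. DHCR7, which reduces 7-dehydrocholesterol to cholesterol, had 6.65, 4.32, 6.64 and 4.52 CPM. These lay under the DMSO median of 15.2 CPM but within its range from 3.44 CPM (log2 change -1.51 ± 0.48, adjusted p = 0.0127).

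The other 3 sterol enzymes did not pass at 0.37 µM. They were CYP51A1, the lanosterol demethylase (log2 change -0.83 ± 0.69), TM7SF2, a sterol C14 reductase (-0.76 ± 0.59), and SC5D, the C5 desaturase (-0.42 ± 0.51). All 3 had wells on both sides of the DMSO median. The 14 enzymes that passed in both arms had all 4 wells below it, which follows in part from their being called on the same wells.

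Of the SREBP2 control genes, SREBF2, INSIG1 and INSIG2 fell at 0.37 µM. SREBF2, the gene of SREBP2, had 11.8, 14.3, 10.6 and 11.0 CPM at 0.37 µM, against 28.6, 49.3 and 67.0 CPM as the lowest, median and highest DMSO well. The wells lay close together and below all of DMSO (log2 change -2.04 ± 0.30, adjusted p = 4.97e-08). INSIG1, a retention factor for SCAP whose gene is itself an SREBP target, had 152, 303, 165 and 182 CPM against 480, 590 and 763 CPM. It did not overlap with DMSO either (log2 change -1.55 ± 0.25, adjusted p = 7.63e-07). INSIG2, its paralog, was at 2.66 to 6.23 CPM, just under the lowest DMSO well at 6.46 CPM (log2 change -1.88 ± 0.62, adjusted p = 0.018). SCAP itself did not pass (log2 change -0.31 ± 0.37), with wells at 6.44 to 20.0 CPM inside the DMSO range. SREBF2-AS1, annotated on the opposite strand across the start of SREBF2, was not analysed here.

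Set against 0.12 µM, the dose just under it, 0.37 µM had 12 members lower and 0 higher, where 5.61% of all genes were lower and 2.53% higher. These were 6 mevalonate enzymes (ACAT2, HMGCS1, MVK, MVD, IDI1 and FDPS), 4 sterol enzymes (FDFT1, SQLE, LSS and MSMO1), SREBF2 and INSIG1. FDPS had 173, 153, 188 and 192 CPM at 0.12 µM, and the log2 change to 0.37 µM was -2.78 ± 0.20. For MVK it was -3.25 ± 0.47. The 4 FDPS wells of each dose lay on opposite sides of the gap between 31.4 and 153 CPM.

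The fall at 0.37 µM rested on the wells as follows. Leaving out each treated well in turn left 14 to 17 members called, and NSDHL, DHCR7, INSIG2 and MYLIP each lost the call in some of these fits. Against only the 4 controls that share the treated rows K and L, calls over all genes went from 3525 of 14243 to 1232 of 13323. Of the 18 member calls 12 were kept, and DHCR7, EBP, IDI1, INSIG2, MYLIP and NSDHL were not (adjusted p from 0.0747 for DHCR7 to 0.54 for NSDHL). The log2 changes of these 6 were then -1.74, -1.27, -1.17, -1.81, -2.11 and -0.76, in that order, so that NSDHL had the smallest. Several members share sequence or exons with others: MVK with MMAB, ACAT2 with TCP1, NR1H3 with ACP2, NPC1 with RMC1 and NPC2 with ISCA2 on the opposite strand, and TM7SF2 with VPS51 on the same strand. FDPS, CYP51A1 and HSD17B7 have pseudogene copies, and strand use in the counting is not given in the sources used here.

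**Figure D3:**
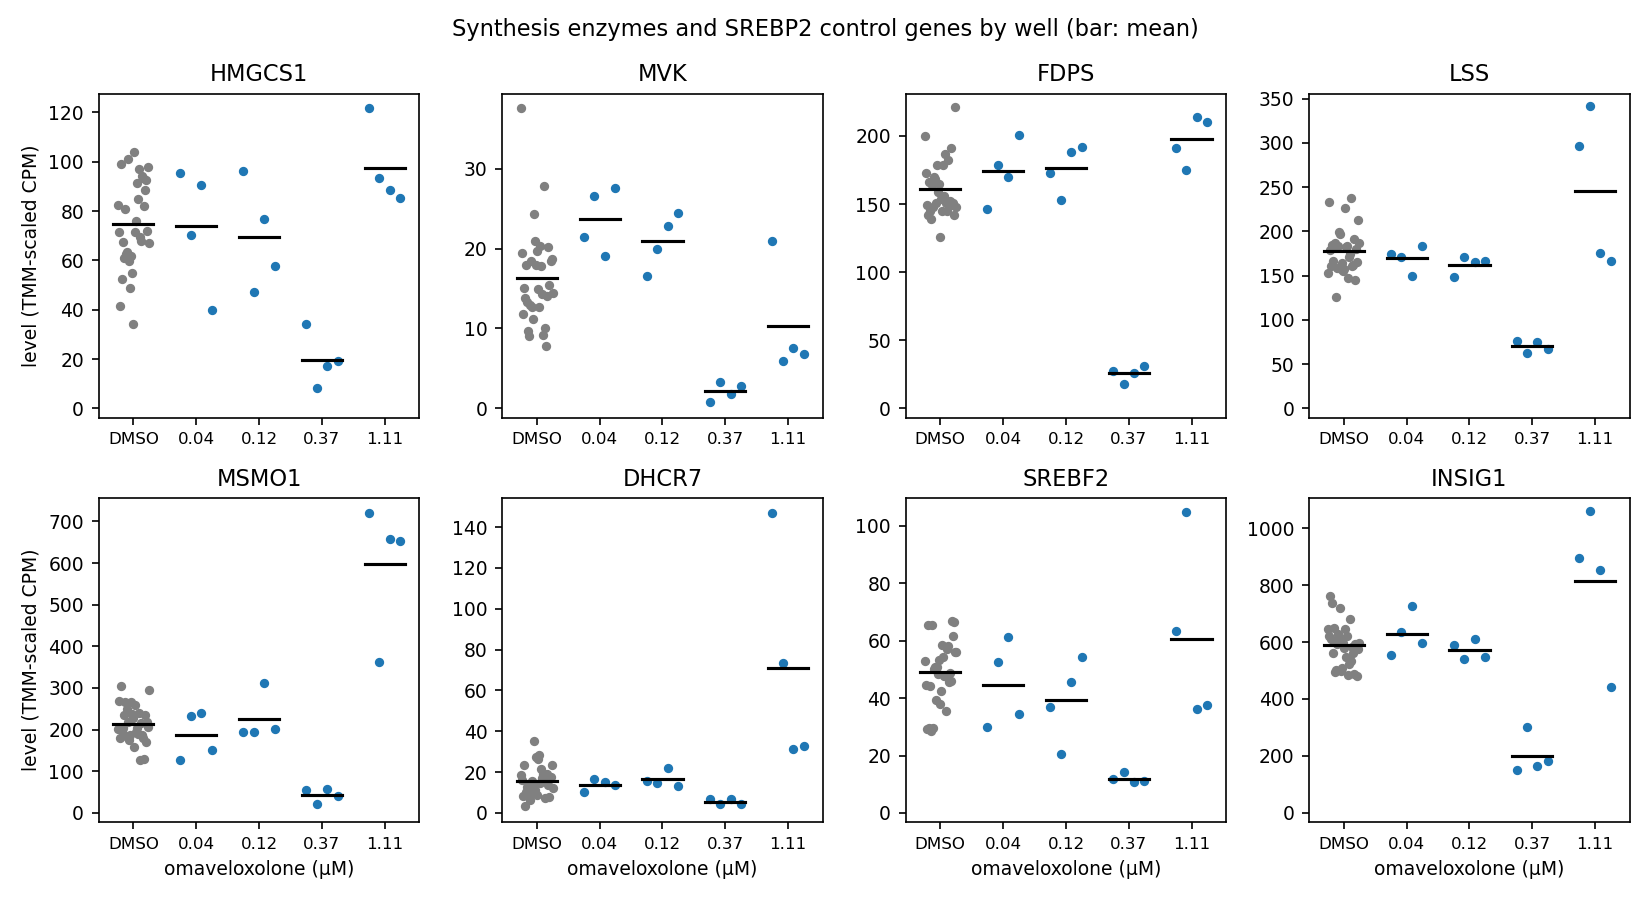
Level in TMM-scaled CPM by well for 6 synthesis enzymes, SREBF2 and INSIG1 in DMSO (32 grey points) and at 0.04, 0.12, 0.37 and 1.11 µM (4 blue points each), with horizontal bars at the mean. At 0.37 µM the wells of all of them but DHCR7 lie below every DMSO well, and at 1.11 µM those of MSMO1 lie above.

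At 1.11 µM most of the enzymes that had fallen were higher than at 0.37 µM. Against 0.37 µM, 17 members were higher and 2 lower, where 12.1% of all genes were higher and 13.4% lower. The median log2 change was 1.56 over the members and -0.14 over all genes. Of the synthesis enzymes 13 of 18 were higher, 6 in the mevalonate arm and 7 in the sterol arm, with a median of 2.11. MSMO1 (3.79 ± 0.36), HSD17B7 (3.94 ± 0.90), DHCR7 (3.68 ± 0.62) and FDPS (2.94 ± 0.21) had the largest log2 rises. SREBF2 (2.34 ± 0.35), INSIG1 (2.02 ± 0.31), MYLIP (2.14 ± 0.83) and NPC2 (0.64 ± 0.18) were also higher. NR1H2 was lower (-1.69 ± 0.41), and so was NR1H3, which was at 2 counts. This comparison and that of 0.37 µM with DMSO or with 0.12 µM share the 4 wells at 0.37 µM, so they are not independent of each other. In a fit of these groups alone, 12 members were higher and 0 lower, without ACAT2, EBP, HSD17B7, MVK, MYLIP, NR1H2 and NR1H3.

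Against DMSO, 1.11 µM had 3 members higher and 3 lower, where 9.77% of all genes were higher and 13.2% lower, so that the count of members was close to the background. MSMO1 had 721, 363, 657 and 654 CPM, and all 4 wells lay above the highest DMSO well at 305 CPM, which held for 2.25% of all genes. Its log2 change was 1.49 ± 0.21 (2.81-fold, adjusted p = 5.7e-08). DHCR7 had 147, 73.3, 31.2 and 32.7 CPM, with 2 wells above the highest DMSO well at 35.1 CPM and all 4 above its median (log2 change 2.17 ± 0.36, adjusted p = 1.84e-06). CYP51A1 went the other way, with 1.55, 1.5, 0 and 1.36 CPM and 6 counts in all. Its DMSO median was 9.22 CPM, with wells from 0.164 to 20.7 CPM. Its log2 change was -3.14 ± 0.97 (adjusted p = 0.0129), and without the third well its adjusted p was 0.0548. Against only the 4 controls that share the treated rows, CYP51A1 was not called (adjusted p = 0.0504). With a replicate block in the fit, neither CYP51A1 (adjusted p = 0.056) nor MSMO1 (adjusted p = 0.0581) was called.

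The remaining synthesis enzymes did not pass against DMSO at 1.11 µM. FDPS had 191, 175, 214 and 210 CPM, all above the DMSO median of 153 CPM and below its highest well (log2 change 0.30 ± 0.14, adjusted p = 0.124). LSS had 297, 342, 176 and 166 CPM, with 2 wells above DMSO (0.47 ± 0.19, adjusted p = 0.0704). HMGCS1 was at 0.38 ± 0.26, SQLE at 0.40 ± 0.33, IDI1 at 0.27 ± 0.23, FDFT1 at 0.09 ± 0.18 and EBP at 0.25 ± 0.29. ACAT2 (-0.04 ± 0.41), MVD (-0.33 ± 0.26), MVK (-0.66 ± 0.36) and NSDHL (-0.66 ± 0.42) had negative values, and 3 of 4 MVK wells lay below the lowest DMSO well. PMVK (0.14 ± 0.32), SC5D (0.53 ± 0.48), TM7SF2 (0.81 ± 0.54) and HSD17B7 (0.98 ± 0.56) had positive values with wide errors. SREBF2 had 63.5, 105, 36.3 and 37.5 CPM (0.30 ± 0.25) and INSIG1 894, 1060, 853 and 443 CPM (0.46 ± 0.21, adjusted p = 0.105). For INSIG1 3 wells lay above all of DMSO and the other below it.

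These calls at 1.11 µM depended on the fit. DESeq2 called 10 members, adding FDPS, INSIG1, LSS and NPC2, all of them higher, and so did a fit without the wells at 3.33 and 10 µM. Over all genes, DESeq2 called 3952 of 14243, with 1634 higher and 2318 lower. Against only the 4 controls in the treated rows, 2 calls were kept, those of MSMO1 and NR1H3. Calls over all genes went from 3274 of 14243 to 982 of 13323 in that fit.

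Of the LXR and export genes tested, 1 of 4 was called at 0.37 µM, MYLIP, and 2 of 4 at 1.11 µM, NR1H2 and NR1H3, all lower. NR1H2, the gene of LXR beta, had 49.5, 59.1, 59.4 and 60.3 CPM at 0.37 µM, and 3 wells lay above the highest DMSO well at 51.3 CPM. Its log2 change of 0.55 ± 0.27 did not pass (adjusted p = 0.126). NR1H2 did pass with the size factors of DESeq2 (0.81, adjusted p = 0.0129) and by the DESeq2 Wald test (0.81, adjusted p = 0.00014). Under TMM it was called with 0.37 µM and DMSO alone (0.56, adjusted p = 0.00301). It was also called without the wells at 3.33 and 10 µM (0.55, adjusted p = 0.023), and in none of the other fits. At 1.11 µM it had 20.9, 12.7, 34.6 and 3.41 CPM, 3 of them below the lowest DMSO well at 24.6 CPM. It was then lower (log2 change -1.14 ± 0.34, adjusted p = 0.00883), and without the fourth well its adjusted p was 0.0935. NR1H3, the gene of LXR alpha, had a DMSO range of 0.378 to 14.1 CPM and was at 3.10, 0.111, 4.29 and 6.67 CPM at 0.37 µM, which did not pass (-0.98 ± 0.63). At 1.11 µM it had 2 counts over the 4 wells, a ratio to DMSO of 0.054 with an exact 95% counting interval from 0.00654 to 0.195 (adjusted p = 0.00125).

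The exporters differed in how well they were counted. ABCA1, which hands cholesterol to lipid-poor apolipoprotein, had 0.688, 0.776, 14.1 and 1.54 CPM at 0.37 µM against 0, 7.90 and 30.9 CPM as the lowest, median and highest DMSO well. With 1 well far above the other 3, the log2 change of -1.11 ± 0.79 did not pass (adjusted p = 0.327). Without that well it was -3.17 (adjusted p = 0.0201). At 1.11 µM it had 29 counts in all and a log2 change of -0.82 ± 0.82. ABCG1, the partner exporter, had 55 counts over all 72 wells and 0 at both 0.37 and 1.11 µM, so no fold is given. MYLIP, which sends lipoprotein receptors to degradation, had 9.06, 4.21, 0.102 and 0 CPM at 0.37 µM, against 2.12, 13.1 and 38.0 CPM in DMSO. It was lower (log2 change -2.10 ± 0.70, adjusted p = 0.0186) and stood at 0.03 ± 0.61 at 1.11 µM.

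Synthesis and export transcripts were also set against each other within each well. The log2 ratio of summed synthesis counts to summed counts of ABCA1, ABCG1 and MYLIP does not depend on scaling, and it was 6.08 ± 0.79 in DMSO (SD, n = 32). At 0.37 µM it was 6.17 ± 1.25, with wells from 4.95 to 7.87, a difference of 0.09. Without the fourth well, which held 15 export counts, the difference was -0.48. The export sum had gone from 23.6 ± 10.2 CPM to 7.62 ± 5.53 CPM there, with wells from 1.54 to 14.2 CPM against 3.58 to 47.4 CPM in DMSO. At 0.12 µM the difference in the log2 ratio was 0.15, and -0.24 without the third well. The difference at 1.11 µM was 1.31, and 0.21 without the third well, which held 1 export count and had a log2 ratio of 10.69. The export side was 1 count in all at 3.33 µM and 3 counts at 10 µM, so no ratio is given there. The ratio rests on 284 export counts at 0.37 µM and 108 at 1.11 µM.

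**Figure D4:**
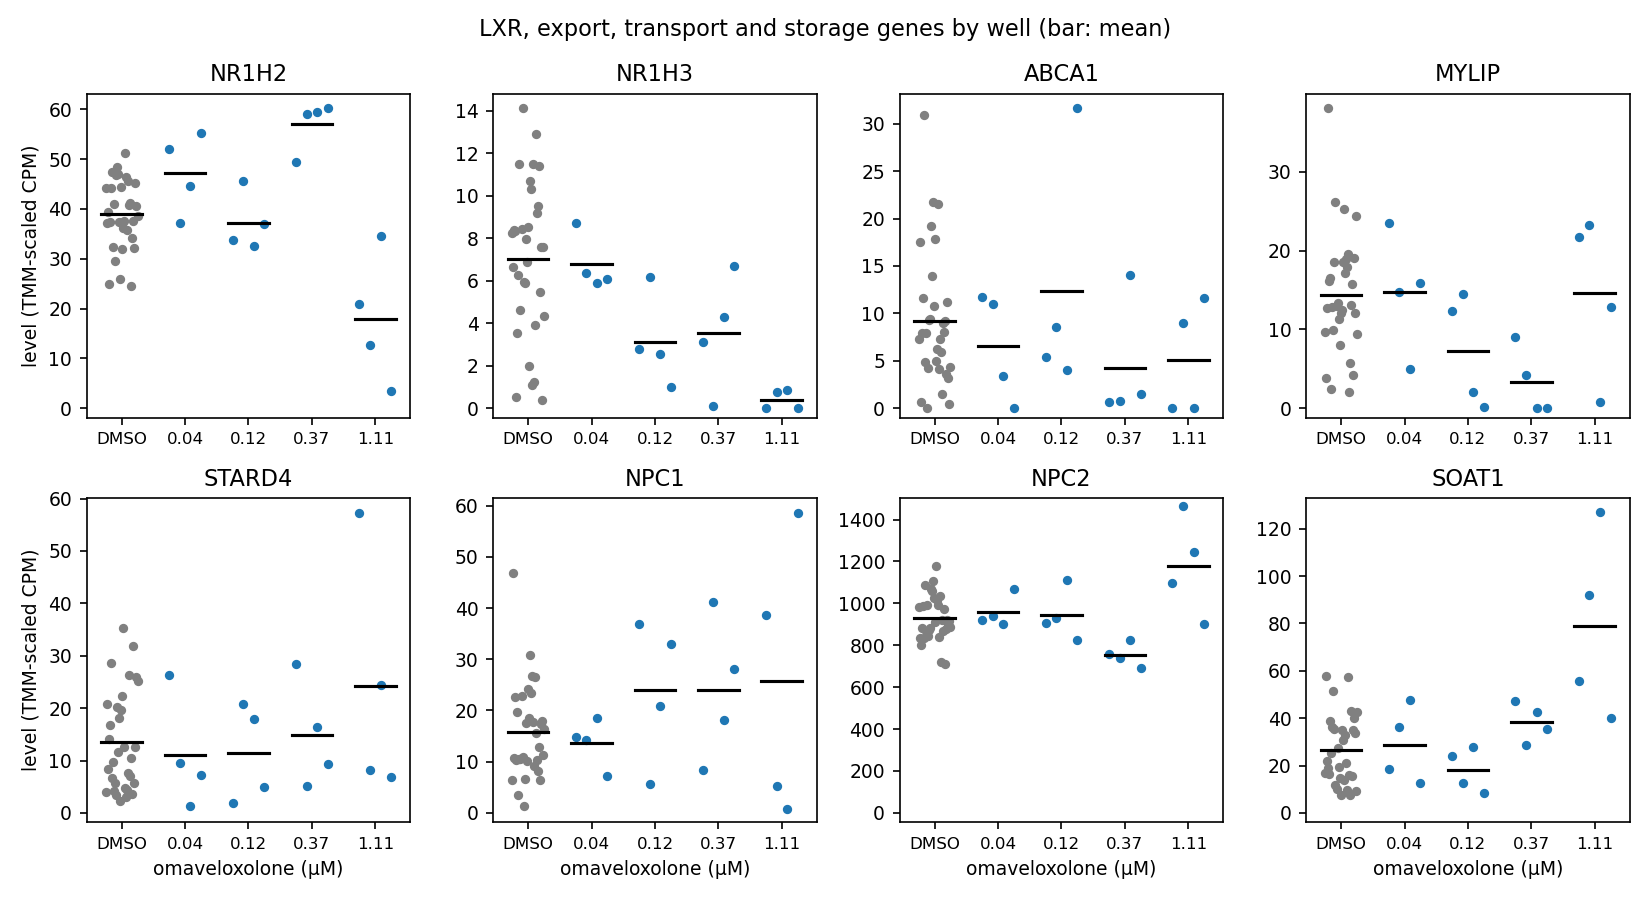
Level in TMM-scaled CPM by well for the LXR genes NR1H2 and NR1H3, ABCA1, MYLIP and the 4 transport and storage genes in DMSO (32 grey points) and at 0.04, 0.12, 0.37 and 1.11 µM (4 blue points each), with horizontal bars at the mean. NR1H2 has 3 wells above every DMSO well at 0.37 µM and 3 below at 1.11 µM, and SOAT1 has 2 wells above at 1.11 µM.

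Of the 4 transport and storage genes, edgeR called 0 at 0.37 µM, with a median log2 change of 0.33. NPC2 had an unadjusted p under 0.05, and DESeq2 called 0 of them. In edgeR fits, NPC2 was called lower with 0.37 µM and DMSO alone (log2 change -0.30, adjusted p = 0.00574). It was also called without the wells at 3.33 and 10 µM (-0.30, adjusted p = 0.00452). NPC2, the soluble protein that carries cholesterol out of the lysosome, had 758, 737, 824 and 692 CPM against 711, 913 and 1178 CPM in DMSO (log2 change -0.31 ± 0.14, adjusted p = 0.103). At 1.11 µM it had 1095, 1464, 1245 and 903 CPM (0.34 ± 0.13, adjusted p = 0.0569). NPC1, its membrane partner, had wells of 8.37 to 41.1 CPM at 0.37 µM (0.60 ± 0.53), and at 1.11 µM its wells held 0.844 to 58.6 CPM (0.72 ± 0.55). STARD4, a cytosolic sterol carrier, was at 0.13 ± 0.56 and 0.83 ± 0.55 at these doses. For NPC1 and STARD4 the wells of both doses lay on both sides of the DMSO median.

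SOAT1, which esterifies cholesterol for storage in lipid droplets, was the only one of these 4 genes called at 1.11 µM against DMSO. It had 47.1, 28.5, 42.7 and 35.5 CPM at 0.37 µM, all above the DMSO median of 23.7 CPM and within its range to 58.0 CPM (log2 change 0.53 ± 0.38, adjusted p = 0.332). At 1.11 µM it had 55.8, 92.0, 127 and 40.2 CPM, with 2 wells above all of DMSO, and was higher (1.56 ± 0.36, adjusted p = 0.000573). Against only the controls in the treated rows its adjusted p was 0.0719.

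At 3.33 and 10 µM the members were thinly counted, with 1932 and 191 counts over all 31 members and all 4 wells, and 6 and 16 members at 0 counts. At 3.33 µM, 12 members were lower and 1 higher, where 32.9% of all genes were lower and 7.35% higher. The median log2 change there was -0.43 over the members and -2.32 over all genes. At 10 µM, 15 were lower and 0 higher, where 31.7% were lower and 3.36% higher, and the medians were -5.67 and -5.51. INSIG1 was lower at 3.33 µM, with 397, 13.0, 79.0 and 298 CPM, all below DMSO. SCAP was at 0 counts there, at least 3.59-fold lower, as were SC5D (at least 4.46-fold), INSIG2 (at least 3.75-fold) and HSD17B7 (at least 2.15-fold). These bounds take a floor of 3 counts over the group, and all of these genes were called. ABCA1 was also at 0 counts, at least 2.2-fold lower by that floor, but was not called. Its DMSO wells ran from 0 to 30.9 CPM. It was called by DESeq2, at a minimum count of 30 and in a fit of 3.33 µM and DMSO alone. NPC1 was the member called higher at 3.33 µM, with 0, 209, 0 and 24.0 CPM; without the second well its log2 change was -0.87. At 10 µM SREBF2 was at 0 counts, at least 4.17-fold lower. NPC2 had 98.8, 108, 17.6 and 221 CPM at 10 µM, far below all of DMSO. For INSIG1 and NPC2 the share of all genes with every well below DMSO at these doses is not given here. With the size factors of DESeq2, 6 members were lower and 2 higher (MVD and NSDHL) at 10 µM, and the higher share of all calls moved from 9.59% to 31.6%.

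Across all 10 doses together, 24 of 30 members differed from DMSO, against 56.5% of all genes tested. The other 6 were PMVK, TM7SF2, ABCA1, MYLIP, STARD4 and NPC1. Among the DMSO wells alone, column 23 against column 2 called 1 member, where 3.31% of all genes were higher and 2.82% lower: MSMO1 was higher in column 23 by 0.33 ± 0.08 on the log2 scale (adjusted p = 0.00712). Its log2 changes against DMSO were -2.30 at 0.37 µM and 1.49 at 1.11 µM.

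Of 43 further genes of sterol handling, all counted, 7 were higher and 9 lower at 0.37 µM, where 11.2% and 13.6% of all genes were. Their median log2 change was -0.39, against -0.14 over all genes. ERG28, a scaffold of the C4 demethylation enzymes, was lower (log2 change -2.62 ± 0.28, 55.0 to 8.90 CPM), as were LIPA, the lysosomal acid lipase (-3.87 ± 0.46, 46.1 to 3.14 CPM), and CYP7B1, an oxysterol hydroxylase (-4.12 ± 0.82, 23.9 to 1.37 CPM). FAXDC2 was lower too (-2.06 ± 0.61). Among the higher genes were NCEH1, a cholesteryl ester hydrolase (1.77 ± 0.43, 11.6 to 39.5 CPM), AUP1, a lipid droplet protein (1.27 ± 0.22, 38.0 to 91.8 CPM), and SPRING1, which SREBP cleavage needs (1.03 ± 0.25, 42.2 to 86.5 CPM). At 1.11 µM 10 were higher and 1 lower, where 9.77% and 13.2% of all genes were. LIPA was higher there (1.37 ± 0.30, 119 CPM), as were NCEH1 (2.55 ± 0.42), FAXDC2 (2.04 ± 0.44) and NUS1, a subunit of the dolichol enzyme (1.20 ± 0.46), while RXRA, a partner of LXR, was lower (-1.24 ± 0.28).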

How the data were processed

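RNA of 72 wells was measured by DRUG-seq. The authors deposited raw counts per gene, made with kallisto and bustools on GRCh38 per the submitters' processing notes. Versions, annotation, strand use and collapsing of molecular identifiers are not given in the sources used here. Of 23170 Ensembl IDs, chromosome Y genes and XIST were left out, leaving 23110. Symbols were found by Ensembl ID for 23093 of these. GENCODE release 29, which gave positions and exons, held 23018 of them. Total counts per well ranged from 25525 to 10361975. Counting intervals and floors cover counting error only.

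The counts were normalized by TMM and fitted over all 72 wells with edgeR 4.0.16 (R 4.3.3) by the quasi-likelihood test. The SE of a log2 change or slope was derived from that test, as its size divided by the square root of its F statistic. Genes passed filterByExpr at a minimum count of 10, and p-values were adjusted by Benjamini-Hochberg over all genes tested, with 0.05 as threshold. Folds against groups at 0 counts use a floor of 3 counts over the group, and groups with 1 to 3 counts have exact 95% intervals. The count ratio adds 0.5 to each sum. The fits were tested on simulated data. Tables and figures used Python 3.11.15, pandas 2.3.3, NumPy 2.4.6, SciPy 1.17.1 and matplotlib 3.10.9.

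The members and lists were chosen with earlier results of these data known. All 31 members are named; of the further sterol genes, those called at 0.12, 0.37 or 1.11 µM with a mean of at least 10 CPM, up to 4 per direction and dose by size of change; and NQO1. A gene that this rule names is not reported here. Alternatives were DESeq2 1.42.0, its size factors, no count filter, a minimum count of 30, the groups alone, fits without 3.33 and 10 µM, controls of the treated rows, plate side, a replicate block and leaving out each well. The search with 1 mismatch in the sterol element, the count of groups that do not overlap, the sum without MSMO1 and the count ratio without each well were chosen after seeing the data.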

Additional observations from a re-analysis of the deposited data

Results flagged for a closer look

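In 25 of the 238 groups of 4 wells with a mean of at least 20 counts, 1 well stood apart from the other 3 by Dixon's test (its gap to the nearest well against the whole range, at the 95% critical value), where chance gives about 1 in 20 groups. At 0.37 µM, ABCA1 had 14.1 CPM in the third well, against 0.688 to 1.54 CPM in the others, and NR1H2 had 49.5 CPM in the first well, against 59.1 to 60.3 CPM. At 0.12 µM the wells were IDI1 at 99.4 CPM (others 151 to 157), MSMO1 at 311 CPM (others 194 to 201) and ABCA1 at 31.6 CPM (others 4.01 to 8.59). At 0.04 µM they were SQLE at 97.4 CPM (others 44.7 to 52.2) and NR1H3 at 8.71 CPM (others 5.91 to 6.34).

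At 0.014 µM, 8 groups had such a well. The enzymes were FDFT1 at 403 CPM (others 325 to 329) and LSS at 220 CPM (others 181 to 185). The LXR and export genes were NR1H2 at 62.2 CPM (others 32.9 to 37.6), NR1H3 at 18.4 CPM (others 3.24 to 5.8) and MYLIP at 8.18 CPM (others 19.5 to 21.4). The transport and storage genes were NPC1 at 38.0 CPM (others 5.97 to 9.07), NPC2 at 983 CPM (others 855 to 872) and SOAT1 at 39.3 CPM (others 13.6 to 17.4).

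At 0.005 µM the wells were MVK at 10.5 CPM (others 23.8 to 26.4), PMVK at 11.7 CPM (others 23.9 to 26.1), FDPS at 199 CPM (others 165 to 169), FDFT1 at 317 CPM (others 403 to 415) and HSD17B7 at 20.9 CPM (others 2.89 to 3.44). At 0.002 µM they were PMVK at 30.8 CPM (others 19.7 to 20.9), INSIG2 at 11.5 CPM (others 3.95 to 4.49) and SOAT1 at 6.41 CPM (others 15.4 to 16.9). At 0.0005 µM they were ACAT2 at 17.6 CPM (others 26.8 to 28.5) and TM7SF2 at 15.5 CPM (others 3.82 to 5.78). Neither MSMO1, IDI1 nor ABCA1 was called at 0.12 µM.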

How the results depend on the processing

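With each well of a dose left out in turn, the number of members called was 14 to 17 at 0.37 µM, 6 to 9 at 1.11 µM, 11 to 14 at 3.33 µM and 13 to 15 at 10 µM against DMSO, 11 to 13 at 0.37 against 0.12 µM, 17 to 19 at 1.11 against 0.37 µM, and 0 at doses up to 0.12 µM. At 1.11 µM against DMSO, where 6 were called, 10 were called by DESeq2, with the groups compared alone and without the wells at 3.33 and 10 µM, and 2 against only the controls of the treated rows. Over all genes, the main fit called 3274 of 14243 there and DESeq2 3952. The groups alone called 3831 of 13307, and the fit with the controls of the treated rows 982 of 13323. The groups compared alone called 12 at 1.11 against 0.37 µM, in place of 19. Size factors called 8 at 10 µM in place of 15, and the controls of the treated rows 8 at 3.33 µM in place of 13. Calls over all genes went from 4997 to 2952 in the former fit. They went from 5734 of 14243 to 3906 of 13323 in the latter. With no low count filter 1 member, ABCG1, was called at 0.0005, 0.014 and 0.12 µM, and 3 between the DMSO columns. ABCG1 had counts of 0, 20, 0 and 0 at 0.0005 µM, 0, 0, 6 and 2 at 0.014 µM, and 0, 0, 25 and 0 at 0.12 µM. Calls over all genes went from 1 to 185, from 31 to 163 and from 332 to 465 at these doses. With plate side in the model 1 member, SQLE, was called in the trend. The difference in the log2 ratio of synthesis to export counts at 0.37 µM was -0.48 to 0.49 with each well left out. The cause was not tested.

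At 3.33 µM some log2 changes turned sign when 1 well was left out. That of ACAT2 ranged from -10.38 to 0.58, of CYP51A1 from -8.83 to 1.77, of DHCR7 from -3.08 to 0.56 and of NPC1 from -0.87 to 2.25. These wells held 131894 to 208214 counts, which limits what can be read there.

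Wells with the same number in different doses had a median correlation of -0.007 in their deviations, over 0.1 in 21 of 112 pairs, so the numbers do not pair the wells. With the replicate block, 14 of the 18 calls at 0.37 µM, 1 member at 1.11 µM and 8 members at 3.33 µM were called against DMSO, and 8 of 12 calls were kept at 0.37 against 0.12 µM. This fit kept only the DMSO wells whose numbers also occur at the doses. Over all genes, calls against DMSO went from 3525 of 14243 to 1211 of 13329 at 0.37 µM. They went from 3274 to 790 at 1.11 µM and from 5734 to 3700 at 3.33 µM. The part of the block was not tested apart from that of the fewer controls. The call kept at 1.11 µM was that of NR1H3, and MSMO1 had a log2 change of 1.35 there (adjusted p = 0.0581).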
